A study of Mus musculus with 4 samples.

Results

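Mucins are large glycoproteins whose serine- and threonine-rich stretches carry dense O-linked sugar chains. The 9 genes described here were taken by symbol from a table of 50600 genes, and 9 of the 9 were found: the gel-forming Muc2, Muc5ac, Muc5b and Muc6, and the membrane-bound Muc1, Muc3, Muc4, Muc13 and Muc20. Muc6 was chosen by the log2 fold change between the genotypes, the largest positive one among the 234 genes called higher with a mean of at least 5 CPM (counts scaled to library size), so its values, and those of the other 8 in the same contrast, are given as a description with no test. Messenger RNA was measured in primary colonic epithelial cells of C57BL/6 mice, in 2 wild-type (WT) and 2 Mettl14 knockout (KO) libraries. The Mettl14 protein is part of the enzyme complex that writes N6-methyladenosine (m6A) into mRNA. The sources used here do not give the age of the mice, the Cre or promoter behind the deletion, or whether a library pooled animals, and they do not explain the code C-2W that all 4 titles carry. The libraries of each group differed in sex, as read from Xist and 4 Y-linked genes: WT replicate 1 and KO replicate 2 were male, WT replicate 2 and KO replicate 1 female.

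In the colon, goblet cells secrete polymers of Muc2, the structural base of the mucus that keeps bacteria away from the epithelium. Muc5ac coats the surface of the stomach, Muc6 is made by the glands of the stomach and the duodenum, and Muc5b belongs mainly to the airways and salivary glands. Membrane mucins stand on the apical surface of colonocytes and form the glycocalyx, and several of them also bind receptors of the epidermal growth factor family.

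Library totals ran from 22136440 to 24991060 counts, so 3 counts, the level that a count of 0 still allows, correspond to 0.117 to 0.145 CPM on the scale used here. Mettl14 stood at 11.7 and 8.67 CPM in WT replicates 1 and 2 and at 3.99 and 3.94 CPM in KO replicates 1 and 2 (log2 fold change -1.36, SE 0.22, edgeR adjusted p = 0.0504), and it was called in 7 of the 14 alternative settings. All 12 markers of colonic epithelium were measured, with summed levels of 9184 and 10402 CPM in WT and 7358 and 6883 CPM in KO. Of 14861 genes tested with edgeR, 255 (1.72%) were called higher and 282 (1.9%) lower in KO at an adjusted p under 0.05. When either KO library was left out, edgeR called 0 genes, and 2257 (without KO replicate 1) and 1987 (without KO replicate 2) had an unadjusted p under 0.05. All 8 fibroblast markers were detected, and they summed to 80.8 and 110 CPM in WT and 114 and 620 CPM in KO, with KO replicate 2 the highest. Haemoglobin and Alas2 transcripts summed to 1976 and 2736 CPM in WT and 1353 and 6681 CPM in KO. Leukocyte markers (10 of 10 detected) summed to 119 to 185 CPM in WT and 194 to 265 CPM in KO, and those of endothelium and muscle (7 of 7) to 6.94 to 12.0 and 19.0 to 21.4 CPM. The part of these markers in the mucin results was not tested. Values without KO replicate 2 are given where they moved by over 1.5 times.

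The regions before the transcription starts are shown for 4 members that were picked on their values. The counts of Muc6 and Muc4 were higher in KO. Those of Muc2, next to Muc6, and of Muc13, on the same chromosome as Muc4 but not next to it, were not. Muc20, which overlaps the end of Muc4, also had a positive log2 fold change (1.08), and its window is not shown. Each line holds the 250 bases before the RefSeq start (GRCm38.p6, 5′ to 3′ on the gene's strand), and capitals mark the short motifs named after the sequences, found by a search of both strands. The positions are chr7:141655394-141655643 (minus strand) for Muc6, chr7:141690090-141690339 (plus) for Muc2, chr16:32735636-32735885 (plus) for Muc4 and chr16:33793787-33794036 (plus) for Muc13.
Muc6: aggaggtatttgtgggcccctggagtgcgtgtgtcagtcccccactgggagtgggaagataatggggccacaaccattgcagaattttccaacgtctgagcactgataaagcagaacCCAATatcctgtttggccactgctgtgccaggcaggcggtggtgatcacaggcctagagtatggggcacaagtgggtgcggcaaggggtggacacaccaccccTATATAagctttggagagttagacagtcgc
Muc2: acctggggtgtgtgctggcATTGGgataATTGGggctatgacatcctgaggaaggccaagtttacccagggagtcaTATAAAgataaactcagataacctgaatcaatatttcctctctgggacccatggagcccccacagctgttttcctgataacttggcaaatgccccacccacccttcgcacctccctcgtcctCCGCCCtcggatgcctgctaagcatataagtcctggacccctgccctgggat
Muc4: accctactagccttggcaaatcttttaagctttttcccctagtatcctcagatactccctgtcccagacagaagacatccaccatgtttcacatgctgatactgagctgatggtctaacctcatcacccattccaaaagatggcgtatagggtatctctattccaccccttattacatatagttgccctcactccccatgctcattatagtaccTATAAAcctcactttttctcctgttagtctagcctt
Muc13: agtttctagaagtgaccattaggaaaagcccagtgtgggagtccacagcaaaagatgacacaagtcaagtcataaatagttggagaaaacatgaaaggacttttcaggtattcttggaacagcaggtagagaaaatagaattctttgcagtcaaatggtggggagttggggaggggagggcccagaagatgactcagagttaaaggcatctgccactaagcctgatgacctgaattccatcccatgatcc

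Muc6 has TATATA from 30 to 25 bases before its start, a form of the TATA box added to the search after the window was seen and held by 5.25% of 32851 mouse windows of this length. Muc4 has TATAAA, the usual TATA box, 36 to 31 bases before its start, and 12.4% of windows hold that string. Muc2 has TATAAA farther away, at 174 to 169 bases, and the GC box GGGCGG on the minus strand at 52 to 47 bases, a string in 32.7% of windows. The letters ATATAAG stand close to the start in both the Muc2 and the Muc6 window. That string was not among those searched, so it is not marked in Muc2 and has no share over all windows. CCAAT occurs in the windows of Muc6 and Muc2 and in 33.8% of all windows. The search also took in GATAAG (found in 6.55% of windows), TTTATGG (found in 2.43%), CACGTG (found in 6.02%) and TGTTTAC (found in 3.17%). None of the strings searched occurs in the Muc13 window shown. RefSeq windows were found for 7 of the 9 members, and such matches describe letters only.

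Muc6 was nearly silent in WT colon and measurable in both KO libraries. It passed the filter on low counts only through the KO libraries. It had 5 and 24 counts in WT replicates 1 and 2 and 226 and 349 in KO replicates 1 and 2, or 0.241, 1.01, 10.02 and 13.6 CPM after scaling with the trimmed mean of M-values (TMM). The KO libraries lay well above both WT libraries, and as a ratio the WT libraries differed from each other more than the KO libraries did. Mean levels (± SD, n = 2) were 0.625 ± 0.544 CPM in WT against 11.8 ± 2.53 CPM in KO. The fitted log2 fold change was 4.20 (SE 0.61), or 18.3-fold. By the way Muc6 was chosen, no called gene with a mean of at least 5 CPM had a larger positive log2 fold change. Among all tested genes, 35 did. Without WT replicate 1, the library with 5 counts, the log2 fold change was 3.53, and without WT replicate 2 it was 5.62. It was 3.98 without KO replicate 2, the library rich in fibroblast and haemoglobin transcripts. Within the male pair the log2 ratio of KO to WT was 4.25 and within the female pair 2.80, on the scale of log2(CPM + 0.5). In bulk RNA, more cells that hold a transcript and more of it per cell cannot be told apart. Even in KO, Muc6 remained a minor mucin, with 7.31 and 9.92 counts for each 1000 of Muc2 against 0.144 and 0.609 in WT.

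**Figure D1:**
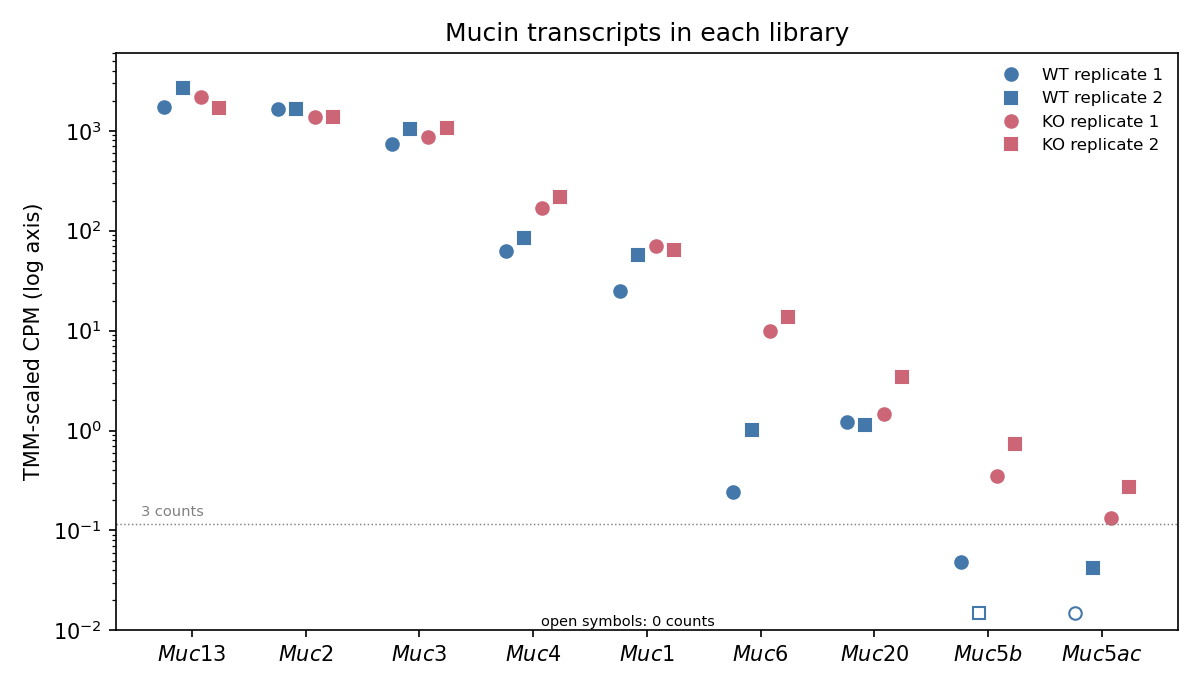
TMM-scaled CPM (log axis) of the 9 mucin genes in the 4 libraries, WT in blue and KO in red, with replicate 1 as circles and replicate 2 as squares; open symbols at the bottom are libraries with 0 counts, and the dotted line marks the lowest level of 3 counts (0.117 CPM). Muc13, Muc2 and Muc3 lie together at the top in both genotypes, while Muc6 stands at 0.241 and 1.01 CPM in WT and 10.02 and 13.6 CPM in KO.

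Muc6 (ENSMUSG00000048191, chromosome 7, 141633456 to 141655319 in GENCODE M21, GRCm38) lies in the cluster of gel-forming mucin genes between Ap2a2 and Tollip. It is read from the minus strand, and Muc2 (141690340 to 141754693) starts 35.0 kb away in the opposite direction. Muc5ac (141788972 to 141819231) starts 134 kb and Muc5b (141839070 to 141873084) 184 kb from the Muc6 start. For the genes on either side of the cluster, the estimates were below 0 and edgeR called neither with all 4 libraries. Ap2a2, a subunit of the endocytic AP-2 adaptor, stood at 87.2 and 60.7 CPM in WT and 51.2 and 56.9 CPM in KO (log2 fold change -0.45, SE 0.20, edgeR adjusted p = 0.207; 0.0321 without WT replicate 2). Tollip, an adaptor of Toll-like receptor signalling, stood at 79.9 and 71.5 CPM in WT and 53.9 and 53.3 CPM in KO (-0.50, SE 0.11, edgeR adjusted p = 0.0651; 0.0362 without WT replicate 2, and 0.0392 with DESeq2).

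Muc2 itself, the main secreted mucin of the colon, was slightly lower in KO. It stood at 1668 and 1658 CPM in the WT libraries and at 1371 in each KO library, so the groups did not overlap. Mean levels (± SD, n = 2) were 1663 ± 7.36 CPM in WT against 1371 ± 0.355 CPM in KO, and the log2 fold change was -0.28 (SE 0.16). The size of this difference rests on the scaling: by library size alone the log2 fold change was -0.11, while that scaling also moved the median of all tested genes by 0.17. The ratio was similar in both sexes, at -0.28 in the male pair and -0.27 in the female pair on the log2 scale.

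The other gel-forming genes of the cluster were barely detected. Muc5ac had 0 and 1 counts in WT and 3 and 7 in KO. Muc5b had 1 and 0 counts in WT and 8 and 19 in KO. Both failed the filter on low counts and have no fitted value. Summed over each group, Muc5ac had 1 count in WT and 10 in KO, and Muc5b had 1 in WT and 27 in KO. With so few counts in WT, no ratio is given. The KO level of Muc5b, at 0.548 ± 0.273 CPM (SD, n = 2), was far below that of Muc6.

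**Figure D2:**
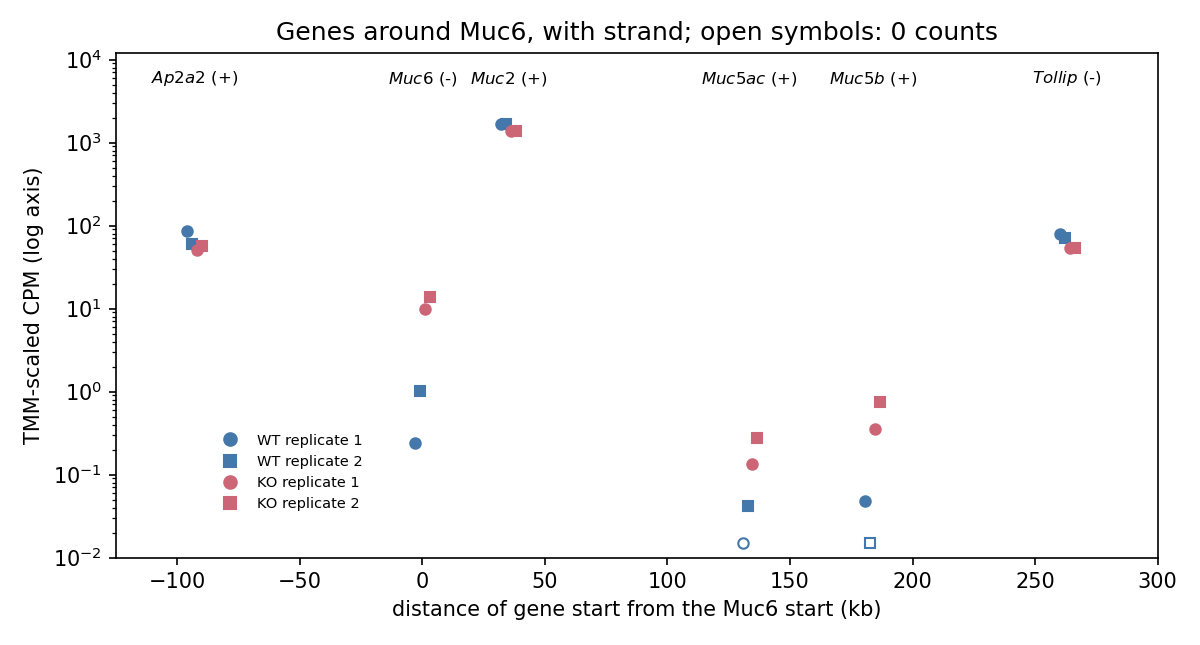
TMM-scaled CPM (log axis) of the 6 protein-coding genes from Ap2a2 to Tollip in each library, plotted by the distance of each gene's start from the Muc6 start in kb, with symbols spread sideways by up to 3 kb for legibility and strands in brackets; open symbols are libraries with 0 counts. Of the low-level genes, Muc6 and Muc5b are higher in both KO libraries, and Muc5ac is above 3 counts only in KO replicate 2. Ap2a2, Muc2 and Tollip, at over 50 CPM, are not higher in KO.

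Among the membrane mucins, Muc4, a large mucin with epidermal growth factor-like domains that partners Erbb2, differed most. It stood at 62.0 and 85.4 CPM in WT and at 168 and 215 CPM in KO, with no overlap. Mean levels (± SD, n = 2) were 73.7 ± 16.5 CPM in WT against 192 ± 33.6 CPM in KO. The fitted log2 fold change was 1.38 (SE 0.22), or 2.60-fold. Leaving out any one library gave 1.16 to 1.66. The log2 ratio was 1.79 in the male pair and 0.97 in the female pair.

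Muc20, which binds the hepatocyte growth factor receptor Met, was low throughout. It stood at 1.204 and 1.14 CPM in WT and at 1.46 and 3.47 CPM in KO (log2 fold change 1.08, SE 0.52). Most of that difference came from KO replicate 2, without which the log2 fold change was 0.34. Muc20 lies on the opposite strand of the end of Muc4 on chromosome 16 (Muc20, 32777419 to 32797435; Muc4, 32735886 to 32782391). They share 627 exonic bases, 15.6% of the Muc20 exons and 5.33% of those of Muc4. Whether the counting used strand is not stated, so reads from the shared bases cannot be told apart, and Muc20 counts (25, 27, 33 and 89) are small beside those of Muc4 (1287, 2029, 3787 and 5528, both in the order WT 1, WT 2, KO 1, KO 2).

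Muc1, a short membrane mucin with a signalling tail, differed mainly through 1 library. It stood at 24.96 and 57.4 CPM in WT and at 69.9 and 64.3 CPM in KO (log2 fold change 0.70, SE 0.40). WT replicate 1 was the low one: without it the log2 fold change was 0.22, and without WT replicate 2 it was 1.46. In the male pair, which includes WT replicate 1, the log2 ratio was 1.35, against 0.28 in the female pair.

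Muc13 and Muc3, the abundant membrane mucins of colonocytes, overlapped between the genotypes. Muc13 stood at 1748 and 2683 CPM in WT and 2180 and 1679 CPM in KO (log2 fold change -0.20, SE 0.28), and the sign turned (0.18) without WT replicate 2. Without KO replicate 2 its log2 fold change was -0.0069. Muc3 stood at 738 and 1036 CPM in WT and 862 and 1057 CPM in KO (0.11, SE 0.24). Its sign also turned, to -0.12 without WT replicate 1 and to -0.02 without KO replicate 2.

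**Figure D3:**
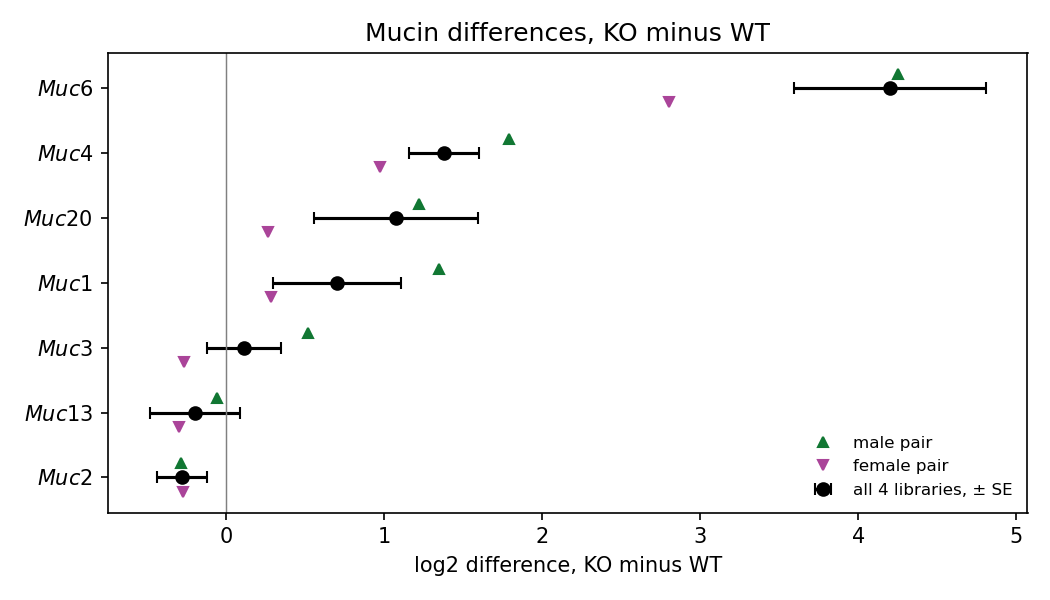
Log2 difference KO minus WT (x axis) of the 7 mucin genes that passed the filter on low counts. Black points are edgeR estimates over the 4 libraries with their SE as bars, and triangles are the log2 ratio of CPM + 0.5 within the male (upward) and female (downward) pair. Muc6 at 4.20 and Muc4 at 1.38 lie to the right in both pairs, and the pairs fall on opposite sides of 0 for Muc3.

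Of the 7 members that passed the filter, edgeR called 1 higher and 0 lower, beside 1.72% and 1.9% of all tested genes (3.61% in either direction). The 1 call was Muc6, which was chosen from the called genes and passed the filter only through the KO libraries, so that call was fixed by the choice. A log2 fold change over 1 was found for 3 of the 7, Muc6 among them, beside 9.09% of all tested genes. Both KO libraries lay above both WT libraries for 4 of the 7 (Muc1, Muc4, Muc6 and Muc20) and below them for Muc2. That separation is common in these libraries: 31.1% of all tested genes lay above, 32.2% below and 63.3% on either side. Because the contrast chose Muc6, nothing is read from these counts.

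Levels of different genes were compared per kilobase of merged exon, using GENCODE M21. In WT, Muc13 was the highest at 729 ± 217 CPM per kb, followed by Muc3 at 457 ± 109, Muc2 at 233 ± 1.03, Muc1 at 17.6 ± 9.78 and Muc4 at 6.27 ± 1.41 (SD, n = 2). Muc13 exceeded Muc3 in each of the 4 libraries, but their means differed by less than their summed SDs in both genotypes. In KO the order of these 5 was the same, with Muc13 at 635 ± 117, Muc3 at 494 ± 70.9, Muc2 at 192 ± 0.0498, Muc1 at 28.6 ± 1.70 and Muc4 at 16.3 ± 2.86 CPM per kb. Muc6 and Muc20 stood in opposite order in the genotypes. Muc20 was at 0.291 ± 0.012 and Muc6 at 0.0668 ± 0.0581 CPM per kb in WT, against 0.612 ± 0.352 and 1.26 ± 0.27 in KO. Muc5b and Muc5ac came last in both genotypes and cannot be ordered at their depth. The Muc3 value depends on the gene model, since RefSeq gives Muc3 a span of 31125 bases against 14401 in GENCODE. The place of Muc2 in this order depends on its length too, with 7127 bases of merged exon against 2926 in its longest annotated transcript. The annotation used for the deposited counts is not stated.

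The 9 genes together took 0.398% and 0.525% of all counts in WT and 0.463% and 0.496% in KO. Muc13, Muc2 and Muc3 made up most of this in each library. Muc4 took 1.46% and 1.55% of the mucin counts in WT and 3.60% and 4.89% in KO. The gel-forming genes together took 39.3% and 30.0% (WT) against 29.6% and 31.5% (KO), so only WT replicate 1 stood apart. Muc6 took 0.00568% and 0.0183% (WT) and 0.215% and 0.309% (KO). The exact 95% intervals of these last shares (0.00184 to 0.0133, 0.0117 to 0.0272, 0.188 to 0.245 and 0.277 to 0.343%) cover counting error only.

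**Figure D4:**
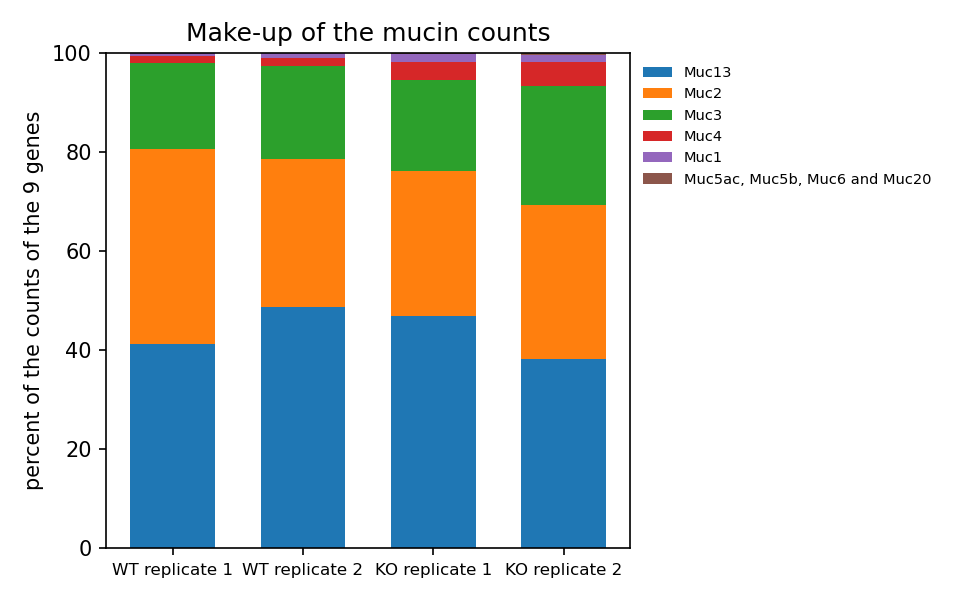
Share of each gene in the summed counts of the 9 mucin genes (y axis, percent), one bar per library. Muc13, Muc2 and Muc3 fill most of every bar, Muc4 widens from 1.46% and 1.55% in WT to 3.60% and 4.89% in KO, and Muc6 is too small to see within the last group.

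Several properties that played no part in the choice of the genes were read from the transcripts. The longest annotated Muc6 transcript has 8757 bases, and 12.7% of its 50-base words occur more than once within it; the share was 23.2% for Muc5ac, 21.9% for Muc5b, 14.2% for Muc13 and 10.1% for Muc4. None of the Muc6 words occurs in a transcript of another gene, and the same holds for Muc1, Muc2, Muc3, Muc5ac and Muc5b. The longest annotated Muc2 transcript has 2926 bases, against 7127 bases of merged exon, so its values cover only a part of the gene. That of Muc3 has 1853 bases. Of the Muc20 words, 13.3% occur in another gene, mostly Muc4. GGACT, a common form of the m6A consensus, occurs 1.14 times per kb in Muc6, near the median of 1.04 over 14837 tested genes. It was denser in Muc1 (2.68 per kb) and Muc3 (2.16) and sparser in Muc20 (0.545). These are counts of letters, not of methylated sites.

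Outside the 9 members, Muc19, a very large gel-forming mucin best known from salivary glands, had 1 and 4 counts in WT and 39 and 75 in KO (0.0482, 0.168, 1.73 and 2.92 CPM). Both KO libraries lay above both WT libraries, with a log2 fold change of 4.32 (SE 0.68). Muc19 passed the filter on low counts only through the KO libraries, so this is a description with no test. Of 12 other mucin genes found in the table, 5 passed the filter, and of the 4 besides Muc19 edgeR called 0, with 0 at an unadjusted p under 0.05. DESeq2 and limma-voom also called 0 of these, though DESeq2 gave Ovgp1 no adjusted p. Muc16 had 3 and 1 counts in WT and 4 and 14 in KO. Muc3a, next to Muc3 on chromosome 5, stood at 58.6 and 23.1 CPM in WT and 24.3 and 30.5 CPM in KO (-0.58, edgeR adjusted p = 0.441), and its sign turned without WT replicate 1 (0.23), while without WT replicate 2 it was called lower (-1.06, edgeR adjusted p = 0.0248). Muc15, Gm9573 (also called Muc21), Mucl1 and Mucl2 had 0 counts in all 4 libraries.

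For the companion lists that follow, the shares over all 14861 tested genes were 1.72% higher and 1.9% lower with edgeR, 6.39% and 6.55% with DESeq2, and 1.9% and 2.02% with limma-voom, and 30.5% had an unadjusted edgeR p under 0.05 in either direction. Genes typical of the stomach, where Muc6 is normally made, summed to 115 and 243 CPM in WT and 107 and 97.7 CPM in KO. Of 25 genes of stomach epithelium and neighbouring duodenal glands, 10 had 0 counts in all libraries: the pit mucus peptide Tff1, the gastrokines Gkn1 and Gkn2, intrinsic factor (Gif), pepsinogen C (Pgc), gastric lipase (Lipf), Cldn18, Sox2, Barx1 and the proton pump subunit Atp4b. Tff2, the peptide secreted with Muc6 in stomach glands, had 0 and 1 counts in WT and 3 and 1 in KO. A4gnt, which adds the terminal sugar typical of Muc6, stood at 7.85 and 3.62 CPM in WT and 6.92 and 9.51 CPM in KO (log2 fold change 0.52, SE 0.42, edgeR adjusted p = 0.447), and 0.30 without KO replicate 2. Of the 6 genes of this list that were tested, edgeR called 0. At an unadjusted p under 0.05, 1 was higher and 2 were lower, beside 30.5% of all tested genes, and DESeq2 called 0 higher and 2 lower and limma-voom 0. The most abundant were the protease Ctse (69.7 ± 39.1 CPM in WT, 42.3 ± 1.60 in KO, -0.72, edgeR adjusted p = 0.296; called lower without WT replicate 1, with a log2 fold change of -1.21, against 0.040 without WT replicate 2) and the junctional protein Vsig1 (55.5 ± 42.7 and 20.0 ± 5.84 CPM, -1.47, edgeR adjusted p = 0.195; adjusted p 0.0424 without WT replicate 1 and 0.0447 with DESeq2, and a log2 fold change of -0.31 without WT replicate 2). Markers of squamous, parietal and chief cells summed to 0.819 and 1.18 CPM in WT and 0.399 and 0.701 CPM in KO.

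Among proteins that share the mucus with the mucins, 1 gene passed the test. The counts of this list include Itln1, which passed the filter on low counts only through the KO libraries. Of 14 mucus layer genes tested, 0 were called higher and 1 lower, with a median log2 fold change of -0.23 beside -0.01 over all tested genes; 1 was higher and 2 lower at an unadjusted p under 0.05, beside 30.5% of all tested genes, and DESeq2 called 1 and 3. The gene called was Mep1a, a subunit of the meprin proteases of the brush border, which fell from 571 ± 148 to 189 ± 28.8 CPM (SD, n = 2; log2 fold change -1.60, SE 0.24, edgeR adjusted p = 0.0472). Tff3, the goblet cell trefoil peptide, stood at 1207 and 1196 CPM in WT and 1016 and 1031 CPM in KO (-0.23, edgeR adjusted p = 0.347), close to the difference of Muc2. Agr2, the disulphide isomerase needed to fold Muc2, stood at 308 and 287 CPM in WT and 453 and 411 CPM in KO (0.54, edgeR adjusted p = 0.0855; 0.0074 with DESeq2), with an estimate of the opposite sign to that of Muc2.

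Of 16 genes of mucin folding and granule release, among them Agr2, 0 were called higher and 2 lower (median log2 fold change -0.27). Unadjusted p were under 0.05 for 2 higher and 5 lower, beside 30.5% of all tested genes, and DESeq2 called 1 and 3. Fer1l6, of the otoferlin-like family, fell from 83.8 ± 7.84 to 37.9 ± 6.13 CPM (-1.14, edgeR adjusted p = 0.0444). Bcas1, a goblet cell gene, fell from 75.2 ± 9.50 to 41.8 ± 1.34 CPM (-0.85, edgeR adjusted p = 0.0465), a call that ended with relative log expression factors and with library size alone.

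The list of mucin-type O-glycosylation holds enzymes that build O-linked sugars, and also a chaperone and transporters. Of its 34 tested genes, 22 had a positive log2 fold change, with a median of 0.18 beside -0.01 over all tested genes. With edgeR 0 were called higher and 1 lower. Unadjusted p were under 0.05 for 5 higher and 3 lower, beside 30.5% of all tested genes, and DESeq2 called 4 higher and 2 lower. Both KO libraries lay above both WT libraries for 12 of the 34, beside 31.1% of all tested genes. In 10 of the 14 alternatives at least 1 was called higher, at most 6. Galnt6, one of the transferases that attach the first sugar, fell from 191 ± 11.8 to 85.5 ± 4.17 CPM (-1.16, SE 0.12, edgeR adjusted p = 0.0434). C1galt1, which makes the core 1 structure on that sugar, stood at 132 and 171 CPM in WT and 219 and 195 CPM in KO (0.45, edgeR adjusted p = 0.166; 0.0483 without WT replicate 2).

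Transcription factors of the secretory lineage and of mucin promoters were split evenly, 12 positive and 12 negative of 24. Among them 0 were called higher and 1 lower, 5 and 5 had an unadjusted p under 0.05, beside 30.5% of all tested genes, and DESeq2 called 2 and 2. The counts of this list include Gata4, which passed the filter on low counts only through the KO libraries. Hnf4g, a nuclear receptor of intestinal epithelium, fell from 7.14 ± 0.396 to 2.24 ± 0.0283 CPM (-1.67, edgeR adjusted p = 0.0434). Atoh1, which commits cells to the secretory lineage, stood at 23.3 and 24.4 CPM in WT and 34.5 and 36.3 CPM in KO (0.57, edgeR adjusted p = 0.0532, called in 5 of 14 alternatives). Spdef, which drives goblet cell maturation, stood at 38.4 and 30.3 CPM in WT and 31.6 and 27.2 CPM in KO (-0.23, edgeR adjusted p = 0.39), and the estimate was -0.10 without KO replicate 2.

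Of 15 partners of membrane mucins, among them receptors, lectins, sheddases, adaptors and scaffolds, edgeR called 0, with a median log2 fold change of -0.39. At an unadjusted p under 0.05, 1 was higher and 6 were lower, beside 30.5% of all tested genes. DESeq2 called 1 higher and 4 lower, and limma-voom 0 and 1. The most abundant members were galectins, which bind mucin sugars. Lgals4 stood at 2279 and 2425 CPM in WT and 1784 and 1550 CPM in KO (-0.50, edgeR adjusted p = 0.146; 0.035 with DESeq2). Lgals3 stood at 873 and 1195 CPM in WT and 522 and 437 CPM in KO (-1.11, edgeR adjusted p = 0.0619), and it was called in 5 of 14 alternatives.

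**Figure D5:**
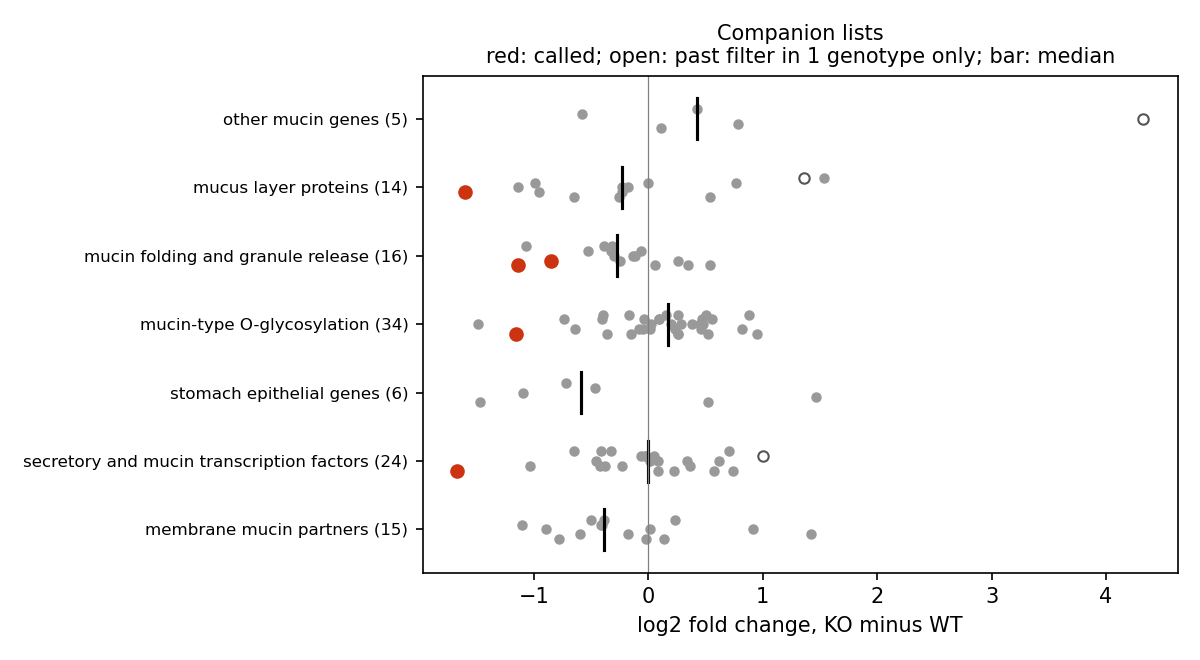
Log2 fold change KO minus WT (x axis) of the tested genes of 7 companion lists (number tested in brackets), with one dot per gene. Red dots mark genes past the edgeR threshold (adjusted p of 0.05), and black bars are list medians. Open dots are genes that passed the filter on low counts through 1 genotype only, among them Muc19 at 4.32, and the red dots, all on the left, are Mep1a, Fer1l6, Bcas1, Galnt6 and Hnf4g.

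The genes whose levels followed Muc6 most closely were ranked by the Euclidean distance between log2(CPM + 0.5) values, centred on the mean of the 4 libraries. The ranking took in 9736 other tested genes with a mean of at least 5 CPM, leaving out symbols of predicted genes and clones. Among the 5 nearest were Sox8, a transcription factor (distance 0.41), Gp2, a glycoprotein of M cells and pancreatic granules (0.47), Extl1, an exostosin-family glycosyltransferase (0.56), and Il4i1, an amino acid oxidase (0.58). Sox8 stood at 0.0482 and 0.758 CPM in WT and 10.2 and 14.1 CPM in KO. Its log2 fold change, 4.85 (SE 0.83), exceeded that of Muc6, but edgeR did not call it. Gp2 stood at 0.289 and 1.81 CPM in WT and 10.1 and 15.4 CPM in KO. Like Muc6, both were lowest in WT replicate 1 and highest in KO replicate 2. This likeness rests on 4 libraries and on a contrast that chose Muc6, so it is a description with no test.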

How the data were processed

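RNA was sequenced from 4 colonic epithelial libraries, 2 WT and 2 KO by the genotype label, with replicates numbered in accession order. The deposited table holds whole-number counts for each gene, unscaled by the authors as far as the values show. FastQC 0.11.2, STAR 2.4.2a, RSEM 1.2.29 and mm10 are named in the submitters' processing notes, without their roles; the sources used here give neither annotation nor strandedness. Of 50600 genes, 99.6% matched GENCODE M21, and 0 columns lacked a sample.

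Genes were filtered with filterByExpr and scaled by TMM. Genotypes were compared by the quasi-likelihood F-test of edgeR 4.0.16 (R 4.3.3, two-sided, Benjamini-Hochberg over all tested genes, threshold 0.05), which leaves 2 residual degrees of freedom. The fit was tested on simulated data with the same spread setting for every gene and no difference between the sexes, so those data differ from these libraries. Each group holds 1 male and 1 female library, so its libraries came from different mice, and p-values measure the spread between these libraries, sex included. CPM are TMM-scaled, with an offset of 0.5 for logs. Alternatives were DESeq2 1.42.0, limma-voom (limma 3.58.1), other scaling, filters and options, sex as a covariate and omission of each library. Named genes were all members, up to 3 called genes of a list (or its 2 most abundant tested genes where none was called), a few fixed genes, the neighbours of Muc6 and the 5 genes nearest to it. Muc3a, Muc16, the genes at 0 counts and the marker sums lie outside that rule and were named after their values were seen. One gene the rule takes is not reported here. The members and lists were chosen with earlier results of these data known.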

Additional observations from a re-analysis of the deposited data

Results flagged for a closer look

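For Muc3 and Spdef, the male and the female pair of libraries differed in opposite directions. The log2 ratio of KO to WT, on the scale of log2(CPM + 0.5), was 0.518 in the male pair and -0.265 in the female pair for Muc3, and -0.492 and 0.0583 for Spdef. Each pair holds 1 library per genotype, so the difference between the sexes was not tested.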

How the results depend on the processing

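The 255 higher and 282 lower calls were within 1.5 times with relative log expression factors, without mitochondrial genes, with limma-voom, with a CPM filter and with the robust option off. DESeq2 gave 949 and 973, no filter 862 and 770, and sex as a covariate 696 and 713. Library size alone gave 604 and 186 (76.5% higher, against 47.5%), and upper quartile factors gave 416 higher (61.1%). Omitting each library in turn gave 0 to 1271 higher and 0 to 1019 lower. Over the 14 settings the log2 fold change of Muc6 ran from 3.53 to 5.62. Without WT replicate 2 the log2 fold change turned in sign for Muc13 (omissions gave -0.48 to 0.18), Ovgp1 (-0.029 to 1.10) and Ctse (-1.21 to 0.040). Without WT replicate 1 it turned for Muc3a (-1.06 to 0.23) and Muc3 (-0.12 to 0.41). That of Muc3 also turned without KO replicate 2. With 2 libraries a group, an exact permutation test cannot go below p = 0.333, and at 3 counts or fewer Muc5ac cannot be told from absence. The labels pair no WT library with a KO library, so no analysis by labelled pairs was possible. The fit with sex as a covariate, which compares KO with WT within each sex, is the nearest to a paired analysis.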
